A study of Daphnia magna with 45 samples.

Results

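Gene expression was followed over the first 6 h in unexposed Daphnia magna, using the 9 control libraries harvested at 1, 3 and 6 h out of the 45 libraries of the series. These 9 were chosen by their labels alone, 3 libraries for each hour, and no exposed, 0 h or 24 h library entered any value below. Daphnia magna is a small planktonic freshwater crustacean. The animals were females of the strain Xinb3, 5 days old, and whole bodies were used. Each library came from a vessel of 20 animals in 35 mL that held neither propranolol, a blocker of beta-adrenergic receptors, nor isoprenaline, an activator of them, the compounds given in the rest of the series. The labels do not say that libraries of one hour came from separate cultures, so the p-values reflect how these libraries vary, and that variation may be technical only. The labels give no clock time, feeding state or moult stage.

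Juvenile Daphnia grow by moulting, and each moult cycle brings ordered waves of gene activity in the epidermis that lays down the new cuticle. In RNA from whole animals, a lower level can come from fewer cells of a type or from less RNA per cell, and these cannot be told apart. The controls of the first hours are the background against which the short exposures are read.

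The deposited table gives 19159 transcript IDs in CPM, that is, read numbers brought to a common total of 1000000 for each library, without gene names. None of the IDs could be matched to a named gene, and so groups of IDs are described by their behaviour and only 4 IDs are given individually. The libraries held 16.9 to 28.9 M reads, so that 3 reads stand for 0.104 to 0.177 CPM, and 13 to 352 IDs were at 0 in a library. Replicate 1 at 3 h had both the most reads and the most IDs at 0. The analysis covered the 18023 IDs that reached 1 CPM in 3 or more of the 9 libraries, and 98.6% of these had at least 1 read in all 9.

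The libraries did not sort cleanly by hour. The first principal component of log2(CPM + 1) held 67.1% of the variance, with scores of -70.4, -42.3 and -38.6 for replicates 1, 2 and 3 at 1 h. At 3 h, replicates 1 and 3 scored -62.5 and -32.9, within or next to the range of the 1 h libraries, whereas replicate 2 scored 47.5. At 6 h, replicate 1 scored 9.16 and replicates 2 and 3 scored 99.99 and 89.98. Replicate 2 at 3 h thus lay beyond replicate 1 at 6 h on this axis, and its closest library was that one (Pearson r of 0.965 across IDs, which are not independent replicates). Its r with the other 3 h libraries was 0.880 and 0.924. Its labels give 3 h, and whether that hour is right cannot be settled from the files, so every 3 h mean and every step to or from 3 h carries this doubt. Replicate 1 at 6 h was also nearer to some earlier libraries than to its own hour. Its r was 0.970 with replicate 3 at 3 h and 0.959 with replicate 3 at 1 h. With the other 6 h libraries it was 0.908 and 0.934. Its labels give 6 h, which the files cannot settle either, so every 6 h mean carries a like doubt. Of all single libraries, leaving it out moved the limma calls most for 6 against 3 h, 6 against 1 h and the trend. The main results at 3 h are given with and without replicate 2.

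**Figure D1:**
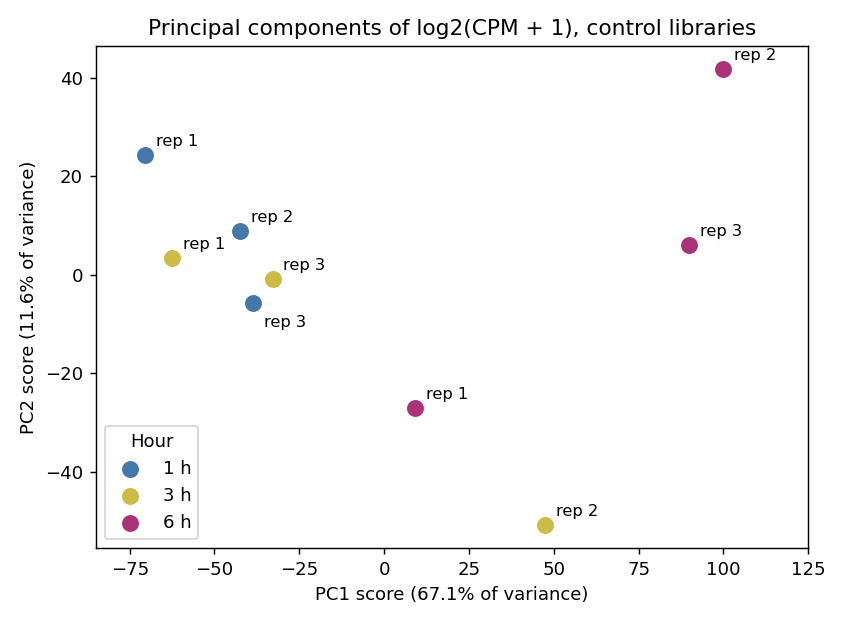
Scores of the 9 control libraries on the first and second principal components of log2(CPM + 1), coloured by hour and labelled by replicate. The 1 h libraries sit at the left, replicates 2 and 3 at 6 h sit at the right, and replicate 2 at 3 h lies between them, to the right of replicate 1 at 6 h.

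Libraries of the same hour also spread more at the later hours. The median SD of an ID over the 3 libraries was 0.174 at 1 h, 0.269 at 3 h and 0.326 at 6 h on the log2(CPM + 1) scale. The SD was largest at 6 h for 9190 IDs, at 3 h for 6838 and at 1 h for 1995. Between pairs of libraries, the median absolute difference of an ID was 0.162 to 0.227 at 1 h. At 3 h it was 0.421 and 0.276 for the pairs with replicate 2 and 0.267 for the pair without it, still above the 1 h pairs. At 6 h it was 0.495 and 0.363 for the pairs with replicate 1 and 0.262 for the pair without it. That last pair was no wider than the 3 h pair without replicate 2.

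The first question was whether expression had moved by 3 h. With limma and Benjamini-Hochberg adjustment over all IDs, none passed an adjusted p of 0.05 (0 of 18023, 0%), and edgeR also called 0. DESeq2 called 7, of which 2 were higher and 5 lower. At an unadjusted p under 0.05 there were 432 IDs with limma, 293 higher (1.63%) and 139 lower (0.771%). Together these IDs fall short of the share of 0.05 that is expected when none changes. The balance of these IDs changed direction between settings. It turned to 129 higher and 254 lower with limma after each library was shifted by its median log ratio, and edgeR gave 164 higher and 205 lower. With limma it also turned without replicate 2 at 3 h, to 102 higher and 130 lower, and without replicate 1 at 1 h, to 57 higher and 97 lower. Leaving out each library once gave totals from 154 to 901, the highest without replicate 1 at 3 h. The median difference over all IDs was 0.08 on the log2 scale, with a median SE of 0.245, and 0.03 without replicate 2 at 3 h. All 3 h libraries lay above all 1 h libraries for 1651 IDs (9.16% of those tested) and below them for 504 (2.8%). After the same shift the counts were 951 above and 1044 below. With replicates 1 and 3 alone at 3 h, where separation asks for fewer libraries, they were 2194 above and 1013 below.

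Large differences at 3 h depended on which 3 h libraries were averaged. The 3 h mean was at least 2-fold below the 1 h mean for 476 IDs and at least 2-fold above it for 42. Without replicate 2 these counts fell to 163 and 19. Without replicate 1 they were 778 and 66, and without replicate 3 they were 690 and 196. Replicate 2 was the lowest 3 h library in 407 of the 476 IDs (85.5%) and the highest in 26 of the 42 (61.9%). Over all IDs tested it was the lowest in 23.3% and the highest in 56.2%. Since its own level helped to choose the 476 and the 42, these shares describe them and test nothing.

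Between 3 and 6 h limma and edgeR again called 0 IDs (0%), while 3921 with limma and 4505 with edgeR had an unadjusted p under 0.05. Those of limma were 1718 higher (9.53%) and 2203 lower (12.2%), or 2265 and 1981 after median log-ratio scaling, and 2385 and 2442 without replicate 2 at 3 h. All 6 h libraries lay above all 3 h libraries for 1739 IDs (9.65%) and below them for 1485 (8.24%), or 3946 and 3250 with replicates 1 and 3 alone at 3 h. The number of limma calls was 3827 without replicate 1 at 6 h, 1331 higher and 2496 lower, and without any one of the other 8 libraries it was 0. DESeq2 on all libraries called 1698 IDs, 911 higher and 787 lower.

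Over the whole span from 1 to 6 h a single ID passed the limma test, and it was lower at 6 h (1 of 18023, 0.00555%). This ID stood at 540 CPM at 1 h, 288 CPM at 3 h and 168 CPM at 6 h (means, n = 3 each), which is -1.68 in log2 terms (SE 0.142) with a limma adjusted p of 0.0209. It is also one of the 14 IDs of the linear trend described next. An unadjusted p under 0.05 was met by 5705 IDs with limma, 3037 higher (16.9%) and 2668 lower (14.8%). This balance turned to 2759 higher and 3167 lower after median log-ratio scaling and to 2737 and 3017 with edgeR. With limma it also turned without replicate 1 at 1 h (1612 and 1799) and without replicate 1 at 6 h (3500 and 4294). At an adjusted p under 0.1, a limit added after seeing the data, 1865 IDs (10.3%) were higher and 1820 (10.1%) lower. The 6 h libraries lay above all 1 h libraries for 4054 IDs (22.5%) and below them for 2749 (15.3%), or 3258 and 3565 after median log-ratio scaling. The number of calls was 0 with edgeR and 3923 with DESeq2 (1870 higher and 2053 lower). With limma it was 2015 without replicate 2 at 3 h and 5276 without replicate 1 at 6 h. It was 0 without any single one of the other 7 libraries.

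With limma, a linear trend over the hours was called for 14 IDs, all of them falling (14 of 18023, 0.0777%). Settings that called many more IDs called both directions about equally. DESeq2 gave 2110 rising and 2294 falling IDs, a mean of at least 5 CPM with limma gave 884 and 878, and the replicate number as a block in limma gave 1746 and 1716. The slopes of the 14 IDs ran from -0.66 to -0.29 on the log2 scale per hour, with a median of -0.40 against 0.01 over all IDs tested. The adjusted p was 0.0253 for the one ID that also passed between 1 and 6 h and 0.045 for the others. Levels spanned a wide range, from a mean of 1.93 CPM over the 9 libraries to 730 CPM, and 6 of the 14 were above 50 CPM. From 1 to 6 h their mean CPM fell 3.22-fold to 15.6-fold, with a median of 6.14-fold. The largest fall ended at a 6 h mean of 0.230 CPM, with replicates 2 and 3 below 3 reads. Falls of 11.7-fold and 10.5-fold also ended under 1 CPM, at 6 h means of 0.443 and 0.733 CPM. Among IDs of the 14 with a mean of at least 5 CPM, the largest fall was 9.97-fold. Together the 14 held 0.381% ± 0.0776 of the reads at 1 h, 0.185% ± 0.0509 at 3 h and 0.0744% ± 0.0167 at 6 h (SD, n = 3 each). Without replicate 2 the 3 h mean was 0.215%.

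These 14 IDs declined in steps that nearly all libraries shared. All 6 h libraries lay below all 1 h libraries in 14 of 14 and below all 3 h libraries in 14 of 14, and 13 were in descending order through the 3 hours without overlap. Because the trend chose them, that order describes the group and tests nothing. Over all IDs tested, 80 (0.444%) were in descending and 117 (0.649%) in ascending order without overlap. Relative to the 1 h mean, the median of the 14 was -0.84, -1.21 and -0.72 in replicates 1, 2 and 3 at 3 h. It was -1.71, -2.12 and -2.39 in replicates 1, 2 and 3 at 6 h. Replicate 2 at 3 h was again the lowest of its hour, but for this group it stayed above every 6 h library.

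**Figure D2:**
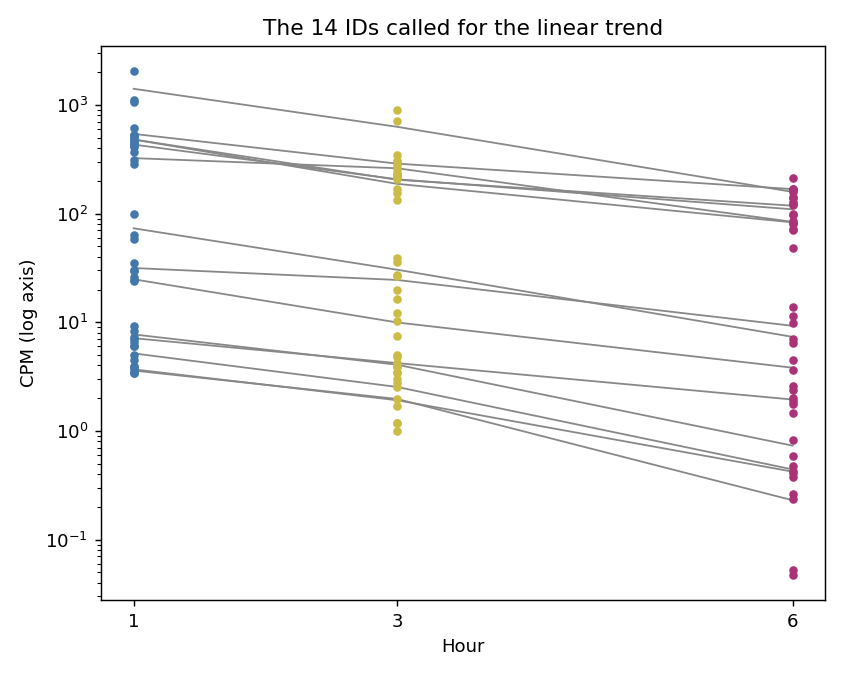
CPM on a log axis against hour for the 14 IDs called for the linear trend, with a point for each library and a line through the 3 hour means of each ID. All 14 lines descend, and the 6 h points of each ID lie below its 1 h and 3 h points (1 value of 0 CPM cannot be drawn).

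By 3 h the 14 IDs had covered 17.3% to 61.1% of their change from 1 to 6 h, with a median of 42.2%. The first step was the larger one in 4 of them. Without replicate 2 at 3 h the median was 33.7% and the first step was the larger one in 1. The first step is shorter in time than the second, so a steady fall also makes it the smaller one. Per hour, the fall was faster in the later step in 5 of the 14, and in 8 without replicate 2 at 3 h. A linear fit chose these IDs, so these shares describe them and test nothing. The test of whether the rate differed between 1 to 3 h and 3 to 6 h called 0 IDs of 18023 (0%) with limma, edgeR and DESeq2, with 489, 486 and 717 at an unadjusted p under 0.05. Each of these counts is below the share of 0.05 that is expected when no rate differs. With limma the 489 were 114 IDs faster upward in the later step (0.633%) and 375 faster downward (2.08%). This balance turned to 347 upward and 204 downward with limma after median log-ratio scaling, and to 433 and 284 with DESeq2. It was 237 and 249 with edgeR, and 286 and 435 with limma without replicate 2 at 3 h. No ID was thus shown to change at one step rather than steadily.

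The steepest of the 14 was Dapma7bEVm020334t1. It stood at 98.1, 57.8 and 63.6 CPM in replicates 1, 2 and 3 at 1 h, at 39.0, 16.2 and 36.1 CPM at 3 h, and at 13.9, 4.49 and 3.64 CPM at 6 h. The hours did not overlap, and in each of the later hours 1 library stood apart, low at 3 h and high at 6 h. Its log2 change from 1 to 6 h was -3.32 (SE 0.481), or a 9.97-fold lower mean CPM, and its slope was -0.66 per hour (SE 0.0903, limma adjusted p 0.045).

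Dapma7bEVm014991t1 followed it at a higher level. Its CPM in replicates 1, 2 and 3 was 2041, 1053 and 1118 at 1 h, 898.3, 277.8 and 706 at 3 h, and 212.8, 139.5 and 122.3 at 6 h. Replicate 2 at 3 h was nearer to the 6 h libraries than to the other 3 h libraries, but still above them. The slope was -0.62 per hour (SE 0.0848, limma adjusted p 0.045), and the mean was 8.88-fold lower at 6 h than at 1 h. Both IDs kept a negative slope in all 18 alternative fits and passed in 10 of them, among them 3 of the 9 fits with a library left out.

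In the main limma fit, with all 9 libraries and the filter of 1 CPM, no ID passed for a rising trend. An unadjusted p under 0.05 was met by 3272 rising IDs (18.2%). Rising IDs were called by DESeq2, and by limma with a mean of at least 5 CPM or with the replicate block. EdgeR, and limma after median log-ratio scaling, called 0 rising IDs. The smallest adjusted p of a rising ID in the main limma fit was 0.0505. Before the first rising ID, 16 falling IDs had smaller p-values. Dapma7bEVm006795t1 had this p, with 4.02, 6.79 and 5.90 CPM in replicates 1, 2 and 3 at 1 h, 8.36, 14.01 and 9.27 CPM at 3 h, and 16.5, 40.2 and 34.9 CPM at 6 h. The 3 hours did not overlap. Its mean was 5.49-fold higher at 6 h than at 1 h, with a slope of 0.44 per hour (SE 0.065) that missed the threshold.

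Dapma7bEVm008948t1 was similar, with 5.83, 7.24 and 12.04 CPM in the same order at 1 h, 10.7, 12.2 and 13.3 CPM at 3 h, and 20.6, 27.8 and 30.2 CPM at 6 h. Replicate 3 at 1 h overlapped with the 3 h libraries, and the 6 h libraries stood above all others. The slope was 0.32 per hour (SE 0.0485, limma adjusted p 0.0505). The first of these rising IDs passed in 7 of 18 alternative fits and the second in 6, and both kept a positive slope in all 18.

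**Figure D3:**
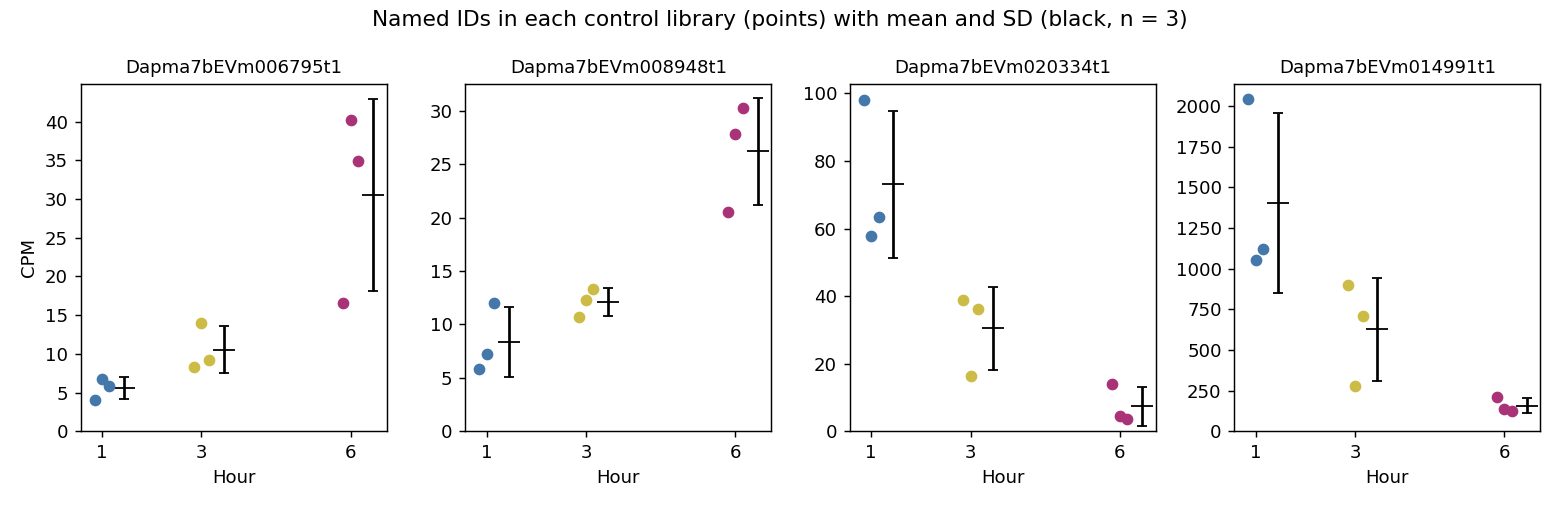
CPM in each of the 9 control libraries for the 4 IDs given individually, with black bars for the mean and SD of the 3 libraries of an hour. Dapma7bEVm006795t1 and Dapma7bEVm008948t1 are highest at 6 h without having passed the test, and Dapma7bEVm020334t1 and Dapma7bEVm014991t1 are lowest at 6 h.

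The figure of 14 depends on where the line is drawn. The last ID inside the threshold had an unadjusted p of 3.49e-05 and the first outside 4.27e-05, and 2630 IDs had an adjusted p between 0.05 and 0.06. Of these 1309 had a positive and 1321 a negative slope. At an adjusted p under 0.1 the trend counted 2403 IDs with a positive slope (13.3%) and 2187 with a negative one (12.1%). The number at 0.05 also turned on single libraries. It was 4522 without replicate 1 at 6 h, with 2070 rising and 2452 falling. It was 2522 without replicate 2 at 3 h, with 1131 rising and 1391 falling, and 2351 without replicate 1 at 3 h, with 1169 rising and 1182 falling. Without replicate 2 at 6 h it was 9, of which 2 were among the 14, and without replicate 3 at 3 h it was 1. It was 0 without replicate 1, 2 or 3 at 1 h, without replicate 3 at 6 h, and with edgeR on all libraries.

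Large differences lay mostly on the lower side. From 1 to 6 h, 1537 IDs were at least 2-fold lower and 774 at least 2-fold higher on the log2(CPM + 1) scale. At 4-fold the counts were 683 lower and 25 higher, and at 8-fold 335 lower and 5 higher. Median log-ratio scaling gave 342 lower and 5 higher at 8-fold. With a 1 h or 6 h library left out in turn, there were 266 to 479 lower and 2 to 9 higher.

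**Figure D4:**
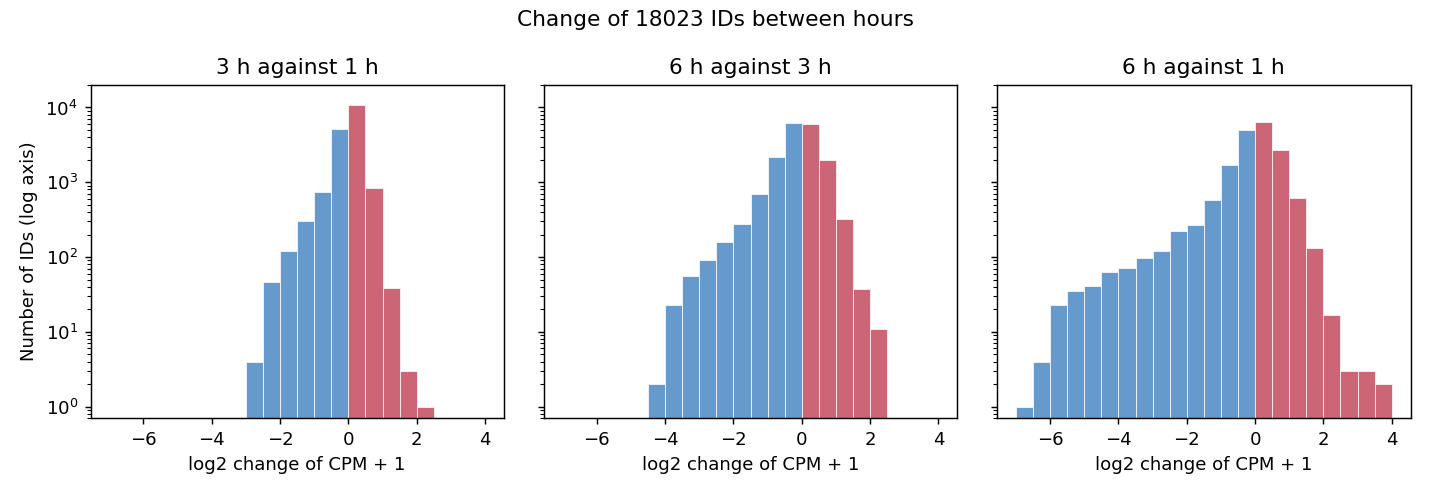
Number of IDs (log axis) by log2 change of CPM + 1 in steps of 0.5, for 3 against 1 h, 6 against 3 h and 6 against 1 h, with lower values in blue and higher values in red. The left tail is longer than the right in each panel, and at 6 against 1 h it holds the 335 IDs at or below -3, against 5 at or above 3.

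The 335 IDs that were at least 8-fold lower differed between libraries as a block. Their median level was 85.9 CPM at 1 h and 6.36 CPM at 6 h, and 224 of them were above 50 CPM at 1 h. In replicates 1, 2 and 3 they held 12.4%, 7.24% and 6.43% of all reads at 1 h, then 9.99%, 0.335% and 5.55% at 3 h. At 6 h they held 1.57%, 0.152% and 0.164%. At 3 h, replicates 1 and 3 were therefore near the 1 h libraries, and replicate 2 was lower than replicate 1 at 6 h.

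The 335 IDs were chosen on their 1 h and 6 h levels, so a 3 h level set against those same libraries is no independent test. Replicate 2 at 3 h lay below all 1 h libraries in 335 of 335 IDs, against 20.6% of all IDs tested. Replicate 3 did so in 253 (13.2% of all IDs) and replicate 1 in 10 (32.7% of all IDs). Replicate 2 at 3 h was below replicate 1 at 6 h in 331 of 335, against 44.5% of all IDs. Deviations from the hour means correlated across the 9 libraries with a mean r of 0.956 over all pairs of the 335, against 0.553 among the 14 called IDs and 0.0789 among all tested IDs. These r share their libraries and are a description only.

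The block also had a wide spread within an hour. The median SE of its change from 1 to 6 h was 1.18, against 0.245 over all IDs. This SE comes from the shared fit, so it also takes in the spread at 3 h, where replicate 2 stood apart. In that fit none of the 335 passed an adjusted p of 0.05 between 1 and 6 h with limma, the smallest being 0.0763, although 335 had an unadjusted p under 0.05. Without replicate 2 at 3 h limma called 2015 IDs, 1258 of them lower. How many of the 335 are among them was not counted. For the trend with all 9 libraries, 2 of the 335 passed at 0.05, which are Dapma7bEVm020334t1 and Dapma7bEVm014991t1.

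**Figure D5:**
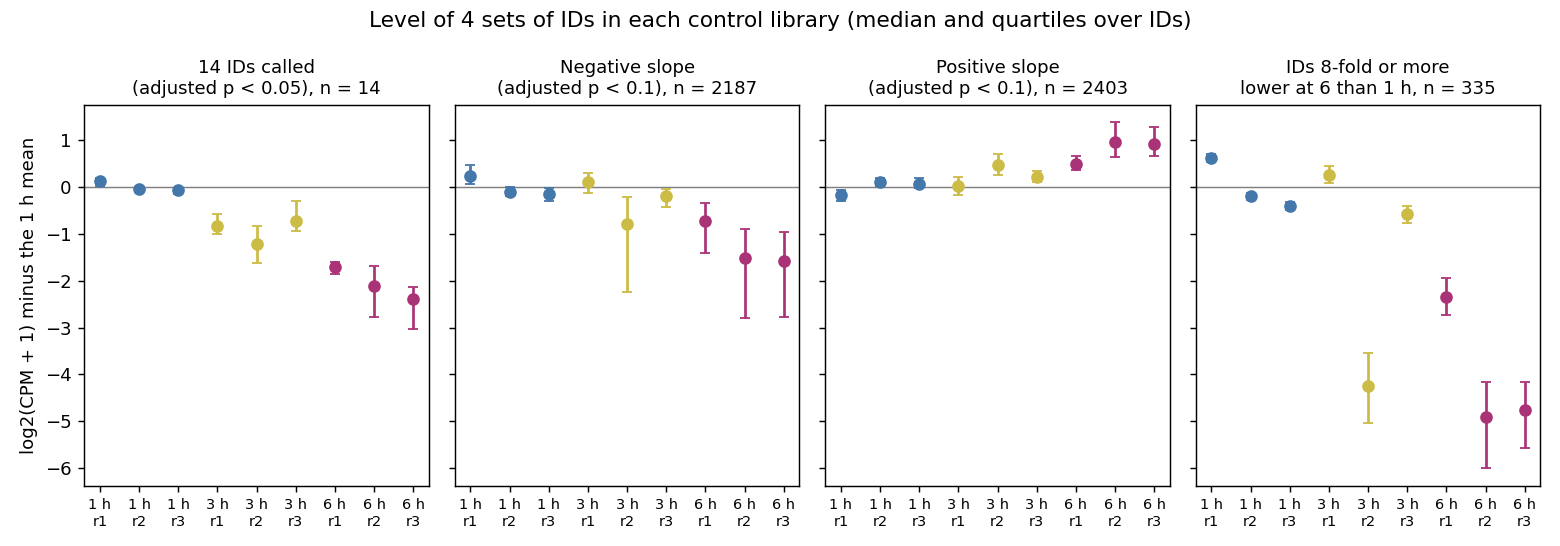
Median difference from the 1 h mean in log2(CPM + 1), with quartiles over IDs as bars, in each control library for 4 sets of IDs. The 14 called IDs step down from hour to hour, with 3 h libraries at -0.84, -1.21 and -0.72, whereas the block of 335 IDs is at 0.25 and -0.57 in replicates 1 and 3 at 3 h and at -4.24 in replicate 2.

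The IDs at an adjusted p under 0.1 for the trend were about evenly divided. The 2403 with a positive slope held 13.0% ± 2.05 of the reads at 1 h, 15.3% ± 2.33 at 3 h and 27.3% ± 7.57 at 6 h (SD, n = 3 each). Their median log2 change from 1 to 6 h was 0.79. The 2187 with a negative slope held 23.1% ± 4.61, 17.6% ± 7.01 and 7.82% ± 3.20 of the reads at 1, 3 and 6 h (SD, n = 3 each), and their median log2 change was -1.28. By 3 h the medians had reached 28.4% and 28.9% of the change, and less than 50% of the change was reached in 84.4% and 91.7% of the IDs. A steady change also stays below 50% at 3 h, because 3 h is nearer to 1 h than to 6 h. The medians of 28.4% and 28.9% rested largely on replicate 2, for without it they were 14.5% and 3.99%. The shares of reads at 3 h were then 14.2% and 21.2% (means of 2 libraries). Replicate 2 at 3 h stood at 0.46 above the 1 h mean for the first set and at -0.79 for the second, close to replicate 1 at 6 h (0.48 and -0.72). Both sets were chosen by a fit that includes these 2 libraries. Their levels and the shares reached at 3 h thus describe the sets and test nothing.

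The share of IDs with either slope varied with abundance, which was described and not tested. Among 3508 IDs with a mean over 50 CPM, 14.8% had a positive and 18.8% a negative slope at an adjusted p under 0.1. Among 9866 IDs at 5 to 50 CPM the shares were 14.3% and 12.1%, and among 4649 IDs under 5 CPM they were 10.2% and 7.27%. The 10 most abundant IDs, with means of 4778 to 49243 CPM, accounted for 11.5% to 19.4% of a library. Of these 10, 2 were higher and 1 was lower at 6 h than at 1 h without overlap, counts near the 22.5% and 15.3% of all IDs. Their log2 changes from 1 to 6 h ran from -4.93 to 1.40, with a median of -0.15, and 4 were higher at 6 h. The 1 that was lower without overlap had the change of -4.93 and belongs to the 335 IDs above. None of the 10 passed the limma trend test (lowest adjusted p 0.0505).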

How the data were processed

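The authors deposited CPM values, with each column summing to 1000000. The submitters' processing notes list edgeR, HTSeq, Trim Galore 0.3.2 and Bowtie2 2.1.0. Neither build nor annotation is given in the sources used here. The kit was stranded and selected mRNA from 500 ng of RNA, per the labels' protocols. Groups came from the library titles.

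Every value of the 9 libraries was a whole multiple of its library's smallest step (100% of 172431 values within 0.01 read), so reads were recovered, and floors of 3 reads cover counting error only. The 9 pairs of libraries of the same hour all differed by more than sampling noise, with 43.2 to 176.2 as chi-square per degree of freedom.

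The main test was limma 3.58.1 (R 4.3.3, trend and robust options) on log2(CPM + 1) with the 9 libraries in a shared fit. IDs needed at least 1 CPM in at least 3 libraries, which left out 1136. This scale understates changes of low IDs. The 5 comparisons were the 3 pairs of hours, the slope over hours and the departure from a line. Benjamini-Hochberg adjustment ran within each. Alternatives included edgeR 4.0.16 (quasi-likelihood test) and DESeq2 1.42.0 on recovered reads. The steps were also run on simulated data with independent IDs and the same spread for all of them. No block of IDs differed between libraries there, so that run cannot speak to the dependence on single libraries.

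The reference table of 28335 genes matched 0 IDs, so no pathway or cell type list could be measured. The rule for named IDs took the largest change from 1 to 6 h among IDs called for the trend, with a mean of at least 5 CPM and no overlap between 1 and 6 h. Without gene names it allowed 2 in each direction, filled by the smallest p where none was called. Members and lists were chosen with earlier results of these data known. The 8-fold block was chosen after seeing the values.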

Additional observations from a re-analysis of the deposited data

Results flagged for a closer look

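Replicate 1 at 3 h stood apart from the other 8 libraries in 2 measures. Its total was 28.9 M reads, with the others at 16.9 to 21.2 M. It had 352 IDs at 0 reads, with the others at 13 to 137. In each case the gap to the next library was large against the range of all 9. For a single normally distributed measure, chance gives such a gap in about 1 of 20 groups. The screen also covered the share of reads in the 10 most abundant IDs and the first principal component. Over the whole screen, chance thus passes the limit more often. The part of the 2 flagged measures in the results was not tested. Without this library the trend was called for 2351 IDs, 1169 rising and 1182 falling.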

How the results depend on the processing

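The number of IDs past the threshold changed with most settings for 6 against 1 h and for the trend, and with few or none for the other 3 comparisons. For 3 against 1 h it stayed at 0 except with DESeq2 (7). For 6 against 3 h, called for 0 IDs, DESeq2 gave 1698, limma's library weights 7701, and leaving out libraries 0 to 3827. For 6 against 1 h, called for 1 ID, median log-ratio scaling and edgeR gave 0, DESeq2 3923, only the 2 hours compared 761, library weights 8455, an adjusted p under 0.1 3685, and leaving out libraries 0 to 5276. For the trend, called for 14, a pseudocount of 0.25 gave 1, a mean of at least 5 CPM 1762, scaling 23 (12 of the 14 among them), edgeR 0, DESeq2 4404, library weights 34, an adjusted p under 0.1 4590, and leaving out libraries 0 to 4522. Having no filter gave 14 and limma without trend and robust options 16. The cause was not tested. Weights, the limit of 0.1 and the descriptive counts without a 3 h library were chosen after seeing the data. The weights came from limma's gene-by-gene method, taken after its default method had been run, had not converged and had given implausibly high counts. The departure from a line had 0 calls in every setting run. The 14 IDs kept a negative slope in every fit that tested them. The 4 named IDs kept their direction in all fits of the slope and of 6 against 1 h.

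Whether replicate numbers pair libraries is not stated in the labels. Deviations of same-numbered libraries correlated above 0.1 in 6 of 9 pairs, with a lowest r of -0.607, and 8 of 18 best matches had the same number. With the replicate number as a block the counts were 0, 0, 2954, 3462 and 0 for the 5 comparisons in the order 3 against 1, 6 against 3, 6 against 1 h, trend and departure.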
